A study of Mus musculus with 4 samples.

Results

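The genes of cholesterol synthesis, sensing and trafficking were followed in mouse liver as 32 named members, of 27669 gene names on the array. They were picked out by gene name, from a list drawn up with earlier results of these data known. The list holds the 4 parts of the sterol sensor (Srebf2, Scap, Insig1, Insig2) and 18 enzymes that build cholesterol from acetyl-CoA. It also holds 5 genes of transfer, storage and lysosomal release, and 5 genes of uptake and efflux at the cell surface. All 32 had a probe, 31 were past the background filter, 28 could be tested and 24 of these were measured on every array. The compared livers came from male C57BL/6 mice on a high-fat diet, whose ages are not given. Control mice received a scrambled antisense oligonucleotide and the others one directed at the transcript of Plin2, a protein of the lipid droplet surface; such an oligonucleotide (ASO) pairs with a chosen RNA so that the cell degrades or blocks it. Both were injected into the abdomen at 25 mg/kg, 2 times a week for 4 weeks. Each of 4 arrays of 2 colours set 1 control liver (Cy5, red) against 1 liver of the Plin2-ASO group (Cy3, green), so n = 4 pairs of mice. No mouse is in more than 1 pair, and the dyes were never swapped, so that a dye effect of a probe cannot be told apart from the treatment. The oligonucleotides were given to the whole animal, and the sequence and binding site of neither is given.

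Cholesterol synthesis is set by feedback. SREBP-2, the product of Srebf2, is a transcription factor held in the membrane of the endoplasmic reticulum; its escort Scap carries it to the Golgi for cleavage when membrane cholesterol is low, and the Insig proteins hold both back when cholesterol is high. The released factor turns on nearly every enzyme of the pathway and Insig1 itself. The liver is a main site of synthesis in the body, and it also esterifies, exports and takes up cholesterol, in part under the liver X receptors, which answer to oxysterols.

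The sequence just before the start of a member's transcript shows where such factors could bind. RefSeq windows (assembly GRCm38.p6) were found for 24 of the 32 members, and the 250 bases before the start were searched on both strands; a gene with several windows counted once. The motifs were the sterol regulatory element TCACNCCAC, its shorter form CACNCCAC, which every longer match also contains, the CCAAT box of the factor NF-Y, which works beside SREBP at many sterol genes, and the E-box CACGTG, which reads the same on both strands. A CCAAT box stood in 14 of 15 synthesis enzymes (93.3%) and in 7 of 9 other members (77.8%), against 37.5% of 27025 genes and 39.7% of the 11758 genes tested on the arrays that have a window. TCACNCCAC was found in 1 of the 24 members, Hmgcs1, against 1.22% of all genes. CACNCCAC was in Acat2, Hmgcs1 and Insig1, 12.5% of the members against 6.05% of all genes, and CACGTG in 6 of 24 (25%), against 6.86%. A match is a run of letters, not a measured binding site. The windows of the members that rose and have one follow, with that of Hmgcs1 for its sterol element. Capitals mark CCAAT on either strand (ATTGG on the printed one) and CACNCCAC on either strand.
Insig1 promoter, chr5:28071162-28071411, plus strand: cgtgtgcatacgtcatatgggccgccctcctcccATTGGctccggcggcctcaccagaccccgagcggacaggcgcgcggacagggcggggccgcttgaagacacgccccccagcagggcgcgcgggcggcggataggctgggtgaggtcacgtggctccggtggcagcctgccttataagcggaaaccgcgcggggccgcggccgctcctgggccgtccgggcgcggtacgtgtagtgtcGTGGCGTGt
Mvk promoter, chr5:114444019-114444268, plus strand: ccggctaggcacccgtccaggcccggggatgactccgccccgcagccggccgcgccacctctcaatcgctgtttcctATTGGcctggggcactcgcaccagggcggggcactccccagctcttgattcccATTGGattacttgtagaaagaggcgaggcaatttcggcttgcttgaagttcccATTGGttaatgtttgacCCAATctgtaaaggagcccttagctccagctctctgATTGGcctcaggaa
Lss promoter, chr10:76531355-76531604, plus strand: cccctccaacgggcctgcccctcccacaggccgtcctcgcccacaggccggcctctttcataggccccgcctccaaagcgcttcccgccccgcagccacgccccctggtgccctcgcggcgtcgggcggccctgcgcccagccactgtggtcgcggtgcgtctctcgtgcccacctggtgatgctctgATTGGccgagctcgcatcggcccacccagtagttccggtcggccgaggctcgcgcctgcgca
Tm7sf2 promoter, chr19:6067851-6068100, minus strand: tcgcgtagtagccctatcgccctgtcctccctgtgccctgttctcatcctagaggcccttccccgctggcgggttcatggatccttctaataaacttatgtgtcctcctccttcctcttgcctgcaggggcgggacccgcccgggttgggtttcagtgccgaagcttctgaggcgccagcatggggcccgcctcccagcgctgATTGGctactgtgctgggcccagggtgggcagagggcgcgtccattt
Hmgcs1 promoter, chr13:119690101-119690350, plus strand: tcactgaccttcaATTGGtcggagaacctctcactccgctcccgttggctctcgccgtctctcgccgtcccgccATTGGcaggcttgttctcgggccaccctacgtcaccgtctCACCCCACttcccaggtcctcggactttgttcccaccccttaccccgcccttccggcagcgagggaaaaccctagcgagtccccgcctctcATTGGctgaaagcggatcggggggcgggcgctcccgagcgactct
In these windows Mvk held 5 CCAAT boxes, Hmgcs1 held 3, and Insig1, Lss and Tm7sf2 held 1 each. The element of Hmgcs1 lay 137 to 129 bases before the start, and that of Insig1 9 to 2 bases before it.

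The probes of the array are 60 bases long. The 5 below are placed by the files (build mm7) on a stretch of genome longer than the probe, as a sequence is that runs over an intron, so they read spliced RNA. The probes of Fdps and Fdft1 gave the values used for those genes, and the other 3 are second probes. All letters are lower case because no part is singled out.
Fdps probe, chr3:89208691-89208831, minus strand: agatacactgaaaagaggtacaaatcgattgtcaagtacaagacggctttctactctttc
Fdft1 probe, chr14:58010811-58015051, minus strand: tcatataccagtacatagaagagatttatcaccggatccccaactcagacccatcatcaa
Insig1 probe, chr5:27107061-27107533, plus strand: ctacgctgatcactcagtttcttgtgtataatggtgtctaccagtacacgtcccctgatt
Mvk probe, chr5:113677760-113680707, plus strand: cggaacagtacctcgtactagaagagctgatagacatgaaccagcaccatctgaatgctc
Cyp51 probe, chr5:4098039-4098445, minus strand: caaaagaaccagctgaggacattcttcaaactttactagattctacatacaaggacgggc
Their mean log2 ratios were 1.90 for Fdps, 0.60 for Fdft1, 1.29 for Insig1, 1.09 for Mvk and 1.32 for Cyp51.

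Each ratio below is a log2 ratio of the normalised signals on 1 array, above 0 where the liver of the Plin2-ASO group was brighter. The target of the oligonucleotide does not bear out the labels: the Plin2 ratios were 0.24, 0.15, 0.83 and 0.36 on arrays 1 to 4 (mean 0.40 ± 0.15, SE, n = 4; adjusted p = 0.156), so these samples are called the livers labelled Plin2-ASO, and an exchange of dyes or labels would turn every sign. All 7 hepatocyte markers were measured, of which only Alb passed, with a mean of -1.70. The mean was above 0 in 4 markers and below 0 in 3, and the median of the 7 means was 0.27. By array the median ratio of the 7 was -0.18, 0.21, -0.16 and 0.45. Their summed signals were 430600 to 483400 in control livers and 309100 to 377100 in the livers labelled Plin2-ASO. These sums include Alb, the brightest of the 7 in every control liver, so they do not show a fall of the other markers. Array 3 stood apart, with a mean correlation of 0.33 with the other arrays over genes, against 0.51 to 0.65, and with 7.61% of its spots marked as outliers, against 1.50% to 3.83%. Median signals per array were 244 to 499 in green and 256 to 637 in red, and no spot was saturated. Whether mice shared cages or litters is not given. A change in bulk liver can be fewer cells of a type or less RNA per cell, and the 2 cannot be told apart.

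Insig1 and 4 of the 17 tested enzymes of cholesterol synthesis were higher in the livers labelled Plin2-ASO, while the esterifying enzyme Soat1 and the exporter Abcg1 were lower. By limma with Benjamini-Hochberg adjustment over all 18043 genes, 5 of 28 members rose (Insig1, Mvk, Fdps, Lss, Tm7sf2) and 2 fell (Soat1, Abcg1), where 3.67% of all genes rose and 6.07% fell. The mean ratio was above 0 in 24 members and below 0 in 4, and their median was 0.32, against -0.03 over all genes, of which 46.2% were above 0. An unadjusted p under 0.05, counted below for each role, was found in 13 of the 28 members (46.4%) and in 26.9% of all genes. The signals of the control and the labelled Plin2-ASO livers did not overlap in 4 members that were higher (Insig1, Mvk, Fdps, Tm7sf2) and 2 that were lower (Soat1, Abcg1), of 24 measured in every liver. Over the 16075 genes measured in every liver, 5.9% were higher without overlap and 10.7% lower. The counts of members that fell, or were lower without overlap, lie near the shares over all genes. They are not read as a result about the list. No member passed without array 1 or without array 2 (9 of the 28 had an unadjusted p under 0.05 each time, 32.1%, against 15.6% and 16.5% of all genes), 11 passed without array 3 and 12 without array 4. Over all genes the number called went from 1759 to 351, 380, 5907 and 1005 without arrays 1 to 4.

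**Figure D1:**
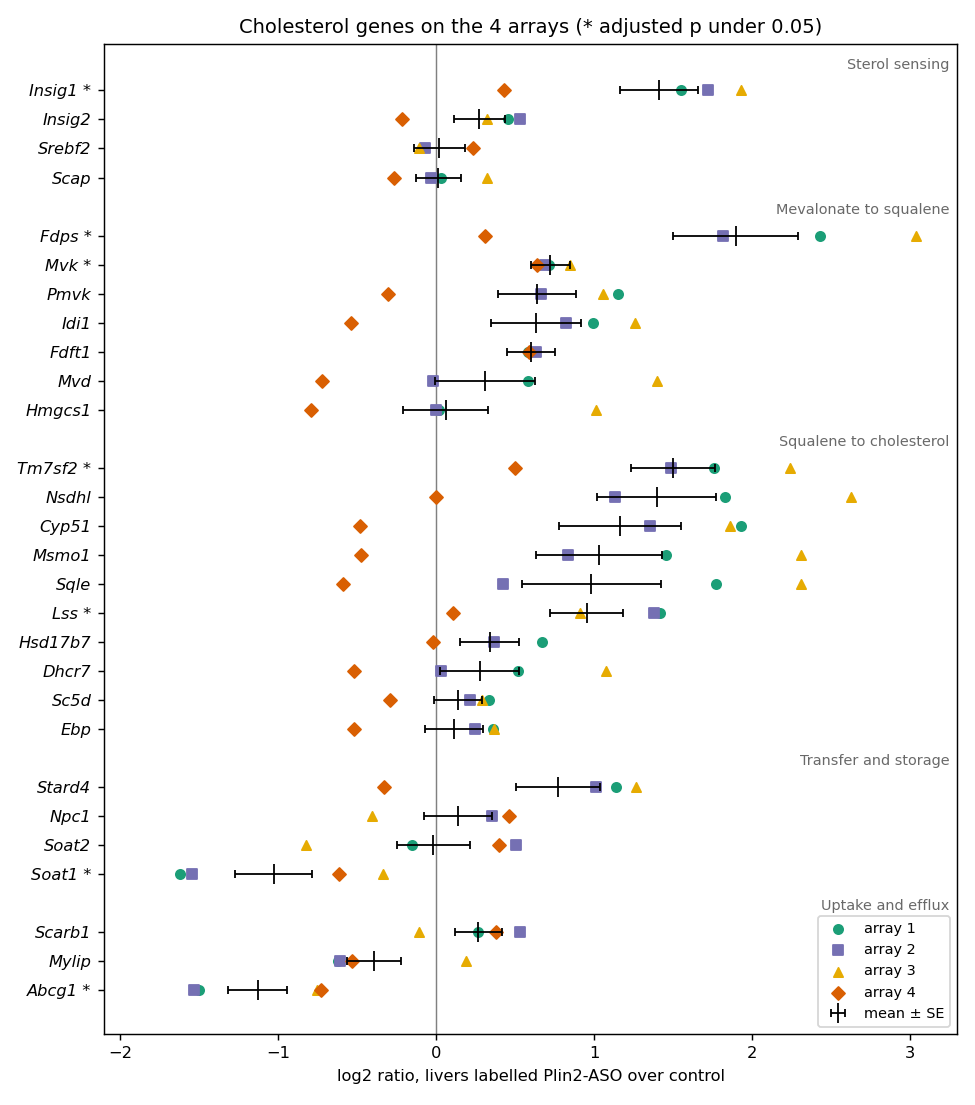
The x axis is the log2 ratio of livers labelled Plin2-ASO over control, the y axis lists the 28 tested members by role, coloured symbols are arrays 1 to 4, and the black tick with its bar is the mean ± SE. Most synthesis enzymes lie right of 0 on arrays 1 to 3 and near or left of 0 on array 4, and Soat1 and Abcg1 lie left of 0 on all 4.

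Of the sterol sensor only 1 gene passed the test. Insig1, the retention protein whose own gene is a target of SREBP-2, had ratios of 1.55, 1.72, 1.93 and 0.43 on arrays 1 to 4. Its log2 signals were 11.90, 10.92, 11.15 and 12.24 in control mice 1, 2, 4 and 5 and 13.44, 12.64, 13.08 and 12.67 in mice 6, 7, 9 and 10 of the other group. Every liver labelled Plin2-ASO was above every control, and control mouse 5 was the highest control. Insig1 rose 2.65-fold (1.41 ± 0.25, SE, n = 4; 95% interval 0.83 to 1.99; adjusted p = 0.0164), and the adjusted p was 0.0976 without array 1 and 0.0908 without array 2, at means of 1.36 and 1.30. Insig2, its homologue, which does not depend on SREBP-2 in the same way, had ratios of 0.46, 0.53, 0.32 and -0.21 (mean 0.27; adjusted p = 0.323). Srebf2, the transcription factor itself, read -0.07, -0.11 and 0.24 on arrays 2 to 4, and its spot was marked as an outlier on array 1 (mean 0.02; adjusted p = 0.952). Scap, the escort, read 0.03, -0.03, 0.32 and -0.27 (mean 0.01; adjusted p = 0.963). The 95% intervals were -0.37 to 0.41 for Srebf2 and -0.32 to 0.35 for Scap, so changes within these bounds could not be seen. The ratios of both crossed 0 between arrays.

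The early enzymes turn acetyl-CoA into mevalonate and then into the isoprenoids and squalene. Of 8 listed, 7 were tested, 2 rose, none fell, and 4 had an unadjusted p under 0.05, with a median mean ratio of 0.64. Mvk, mevalonate kinase, had on the probe used the tightest ratios of the members that rose, 0.72, 0.69, 0.85 and 0.64. Its signals were 9.25, 8.96, 9.13 and 9.06 in the controls and 9.97, 9.65, 9.98 and 9.70 in the livers labelled Plin2-ASO, with no overlap and with array 4 close to the others. Mvk rose 1.65-fold (0.72 ± 0.12, SE, n = 4; adjusted p = 0.0151; 0.124 without array 1 and 0.106 without array 2). Fdps, farnesyl diphosphate synthase, which makes the last shared precursor of sterols and of the other isoprenoids, had ratios of 2.43, 1.82, 3.04 and 0.31. Its signals were 10.21, 9.64, 9.36 and 10.60 in the controls and 12.64, 11.46, 12.39 and 10.91 in the other group. The groups did not overlap, but the pair of array 4 was separated by far less than the other 3. Fdps rose 3.73-fold (1.90 ± 0.40, SE, n = 4; adjusted p = 0.029; 0.147 without array 1 and 0.111 without array 2). A second Fdps probe, designed on another cDNA, read 0.31, 0.19 and 0.29 on arrays 1, 2 and 4 (mean 0.26), and Fdps did not pass when the probes of a gene were averaged (adjusted p = 0.0685) or dim probes were not filtered (0.0509).

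Fdft1, squalene synthase, the first enzyme committed to sterols, read 0.58, 0.64 and 0.59 on arrays 1, 2 and 4 (mean 0.60 ± 0.15, SE, n = 3; adjusted p = 0.059), and its spot on array 3 was marked as an outlier. The 3 ratios were nearly equal, array 4 included, and without array 3, where the other genes had 1 array fewer, Fdft1 passed (adjusted p = 0.00625). The value depends on the marked spot: with outlier spots kept the mean was 0.09 (adjusted p = 0.903) and array 3 read -1.44. A second, dimmer Fdft1 probe read -0.04. Pmvk, phosphomevalonate kinase, had a mean of 0.64 (adjusted p = 0.150), and Idi1, the isomerase of isopentenyl diphosphate, also 0.64 (adjusted p = 0.204). Both passed without array 4, where their adjusted p was 0.0305 and 0.0225. The Idi1 probes are placed on chromosome 2 by the files and the RefSeq window of the gene on chromosome 13, so a near-identical copy of the gene may share their signal. Mvd, which makes isopentenyl diphosphate, had a mean of 0.31 (adjusted p = 0.575). Hmgcs1, the synthase that opens the committed route, read 0.02, 0.0022, 1.01 and -0.79 (mean 0.06; adjusted p = 0.909), so that arrays 3 and 4 pointed opposite ways. Its other probes had means of 0.72 and 0.30. Acat2, the thiolase of the cytosol, was left out because its spot was unmarked on only 1 array; with outlier spots kept it had a mean of 0.26 (adjusted p = 0.348).

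**Figure D2:**
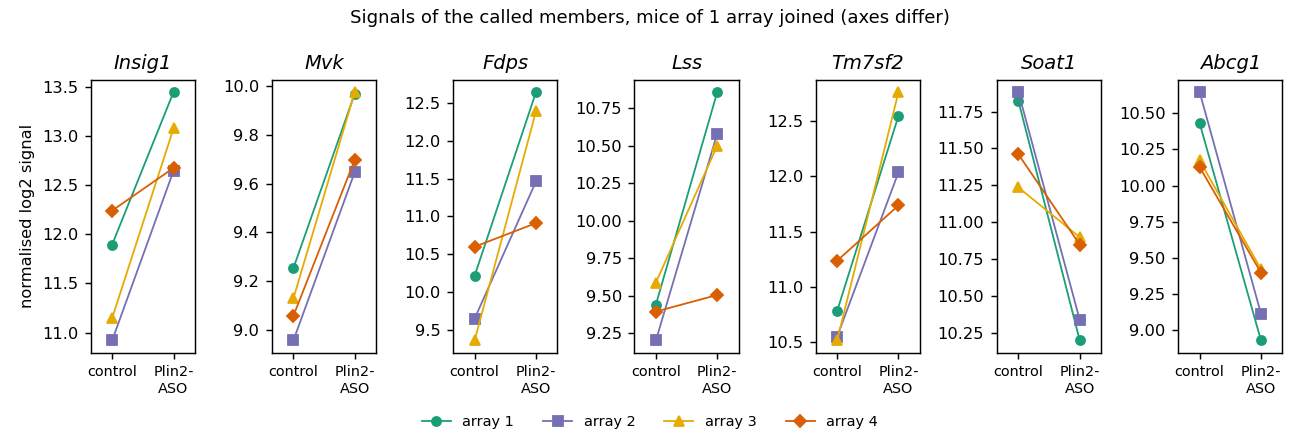
The y axis of each panel is the normalised log2 signal of 1 of the 7 called members, with control on the left and livers labelled Plin2-ASO on the right, and each line joins the 2 mice of 1 array; the axes differ between panels. The line of array 4 is by far the flattest in Insig1, Fdps, Lss and Tm7sf2, while in Mvk the 4 lines run nearly parallel and in Abcg1 arrays 3 and 4 are alike.

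The late enzymes carry squalene through lanosterol to cholesterol. All 10 were tested, 2 rose, none fell, and 5 had an unadjusted p under 0.05, with a median mean ratio of 0.97. Tm7sf2, a sterol C14-reductase, had ratios of 1.76, 1.49, 2.24 and 0.50. Its signals were 10.78, 10.55, 10.52 and 11.24 in the controls and 12.55, 12.04, 12.76 and 11.74 in the livers labelled Plin2-ASO, again with no overlap and with the nearest pair on array 4. Tm7sf2 rose 2.82-fold (1.50 ± 0.27, SE, n = 4; adjusted p = 0.0173; 0.102 without array 1 and 0.0812 without array 2). Lss, lanosterol synthase, which closes the ring system, had ratios of 1.42, 1.38, 0.91 and 0.11. Its signals were 9.44, 9.20, 9.59 and 9.40 in the controls and 10.86, 10.58, 10.50 and 9.51 in the other group. The signal of mouse 10 lay below that of control mouse 4, so the groups overlapped. Lss rose 1.94-fold (0.95 ± 0.23, SE, n = 4; adjusted p = 0.0451), the largest adjusted p among the calls; it was 0.226 when array 1 was left out and 0.208 when array 2 was. A second Lss probe read 0.40, -0.20, 0.49 and -0.53 (mean 0.04), and Lss did not pass with probes averaged or with outlier spots kept (adjusted p = 0.153 and 0.214), nor with the software's ratios, the series table or no filter on dim probes (adjusted p = 0.0627, 0.219 and 0.0654).

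Another 4 late enzymes had means near or above those of the called genes, and none passed. On the probes used, their pair on array 4 was near or below 0. This depended on the probe in Nsdhl and Cyp51. The other kept probes of Nsdhl were above 0 on array 4, and above the Fdps ratio given for that array. Another Cyp51 probe was above 0 there, while the dimmest was below 0. On every kept probe of Nsdhl and Cyp51, array 4 had the lowest ratio. Nsdhl, the sterol 4-alpha-carboxylate dehydrogenase, read 1.83, 1.13, 2.62 and -0.0002 (mean 1.40 ± 0.38, SE, n = 4; adjusted p = 0.063), and its other probes on the same transcript both had a mean of 1.57. Cyp51, the lanosterol demethylase, read 1.93, 1.36, 1.86 and -0.48 (mean 1.16 ± 0.38; adjusted p = 0.105), and its other probes had means of 1.32 and 0.29. Msmo1, the sterol C4-methyl oxidase, read 1.45, 0.83, 2.31 and -0.48 (mean 1.03 ± 0.40; adjusted p = 0.152). In all 3 the first 3 arrays were clearly above 0, and without array 4 they passed, with adjusted p of 0.0179, 0.00689 and 0.0314; Nsdhl also passed without array 3 (adjusted p = 0.0318). Sqle, squalene epoxidase, read 1.77, 0.43, 2.31 and -0.59 (mean 0.98; adjusted p = 0.204) and did not pass whichever array was left out. The remaining late enzymes had small means. Hsd17b7, a sterol 3-keto reductase, had 0.34 (adjusted p = 0.301). Dhcr7, which makes cholesterol from its last precursor in one branch, had 0.28 (adjusted p = 0.522). The desaturase Sc5d had 0.14 and the isomerase Ebp 0.11 (adjusted p = 0.610 and 0.734).

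Over early and late steps together, all 17 enzymes tested had a mean above 0, 4 rose and 9 had an unadjusted p under 0.05 (52.9%, against 26.9% of all genes). The pairs of mice did not behave alike. The median ratio of the enzymes was 0.99, 0.67, 1.26 and -0.31 on arrays 1 to 4. Above 0 were 17 of 17 on array 1, 16 of 17 on array 2, 15 of 15 on array 3 and 5 of 17 on array 4. Among the 15 enzymes measured on every array, array 4 had the lowest ratio in all 15, where it was lowest in 32.1% of all genes, and array 3 the highest in 11. On the probes used, the ratio of 11 enzymes was below 0 on array 4 and above 0 on each other array that measured it. The sign on array 4 depended on the probe in some of them. The other kept probes of Nsdhl and Hmgcs1, and 1 of Cyp51, were above 0 there. The other kept probes of Dhcr7, Hsd17b7, Idi1, Pmvk and Sc5d, and the dimmest of Cyp51, were below 0. The 5 whose used probe stayed above 0 on array 4 were Fdft1, Mvk, Tm7sf2, Fdps and Lss, which include the 4 enzymes that passed.

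On array 4 the signals of both mice differed in this from most of their group. The 2 signals of a spot were calculated from its ratio and its mean brightness. A bias of the ratio on array 4 would therefore move both mice by equal amounts in opposite directions. The part of each mouse cannot be told apart from such a bias. Each signal was set against the mean of its gene over the 8 mice, and the median over the 15 enzymes was taken. It was -0.37, -0.60, -0.62 and 0.08 in control mice 1, 2, 4 and 5, and 0.76, 0.21, 0.71 and -0.21 in mice 6, 7, 9 and 10. Control mouse 5 held the highest control signal in 13 of 15 enzymes (86.7%, against 26.3% of all genes), and mouse 10 the lowest of its group in 10 of 15 (66.7%, against 29.6%). Array 4 had a correlation of 0.25 between ratio and probe GC share over genes, against -0.30 on array 3 and 0.04 and 0.07 on arrays 1 and 2. With ratios adjusted for GC, 7 members rose and 2 fell by limma. Of all 18043 genes, 888 rose and 1327 fell with this adjustment, against 663 and 1096 without it. The part of probe GC in the array pattern was not tested. The food intake and the time of sampling of the mice are not given.

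**Figure D3:**
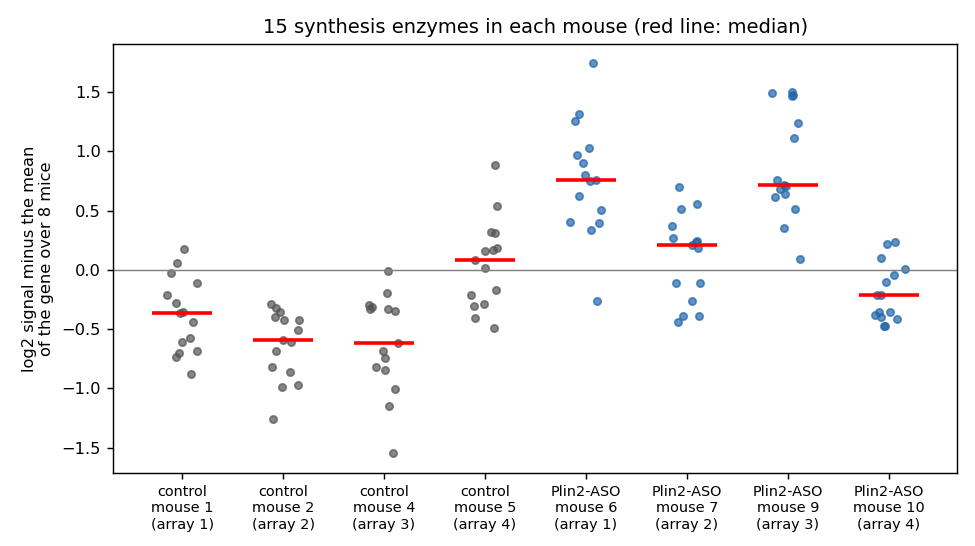
The y axis is the log2 signal of an enzyme minus its mean over the 8 mice, the x axis the mice by group with their array, each point 1 of 15 synthesis enzymes, and the red line the median of a mouse. The medians of control mouse 5 (0.08) and Plin2-ASO mouse 10 (-0.21), which shared array 4, lie in the reverse order of the other 3 pairs.

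Of 5 listed genes of sterol transfer and storage, 4 were tested, none rose and 1 fell by limma, and 2 had an unadjusted p under 0.05. Soat1, the enzyme that esterifies cholesterol in most cells and is abundant in macrophages, had ratios of -1.62, -1.54, -0.34 and -0.61. Its signals were 11.82, 11.88, 11.24 and 11.46 in the controls and 10.20, 10.34, 10.90 and 10.85 in the livers labelled Plin2-ASO. The groups did not overlap, and arrays 1 and 2 were far wider apart than arrays 3 and 4. Soat1 fell by 1.03 ± 0.24 on the log2 scale (SE, n = 4), 2.04-fold lower (adjusted p = 0.0423; 0.206 without array 1, 0.196 without array 2 and 0.0646 without array 4). It also missed the threshold with the software's ratios (0.0509), with the series table (0.0556) and with no filter on dim probes (0.0634). Its 4 probes had means from -1.04 to -0.41, the smallest in size from a probe that the files place on another chromosome. Soat2, the form of hepatocytes and enterocytes that esterifies cholesterol for lipoproteins, read -0.15, 0.51, -0.82 and 0.40 (mean -0.02; 95% interval -0.56 to 0.52; adjusted p = 0.971), so the 2 esterifying enzymes differed in their calls; the difference between them was not tested. Stard4, a carrier of sterol between membranes and itself a SREBP-2 target, read 1.14, 1.01, 1.27 and -0.33 (mean 0.77 ± 0.27, SE, n = 4; adjusted p = 0.119). It had the array pattern of the enzymes, with 3 probes from 0.69 to 1.07, and passed without array 4 (adjusted p = 0.0142). Npc1, which releases cholesterol from lysosomes, read 0.36, -0.40 and 0.46 on arrays 2 to 4 (mean 0.14; adjusted p = 0.729). Npc2, its soluble partner, was unmarked on 1 array only and had a mean of -0.21 with outlier spots kept (adjusted p = 0.477).

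At the cell surface 3 of 5 members were tested, none rose and 1 fell by limma, the only one with an unadjusted p under 0.05. Abcg1, a liver X receptor target that loads cholesterol onto high-density lipoprotein and is strong in macrophages, had ratios of -1.50, -1.53, -0.75 and -0.73. Its signals were 10.43, 10.65, 10.17 and 10.13 in the controls and 8.93, 9.11, 9.42 and 9.40 in the livers labelled Plin2-ASO, with no overlap. Abcg1 fell by 1.13 ± 0.19 on the log2 scale (SE, n = 4), 2.19-fold lower, with the smallest adjusted p of the members (0.0141; 0.0973 without array 1 and 0.0849 without array 2). Scarb1, the receptor that takes cholesterol from high-density lipoprotein into hepatocytes, read 0.26, 0.53, -0.10 and 0.38 (mean 0.27; adjusted p = 0.294; 0.0378 without array 3). Mylip, a ubiquitin ligase induced by liver X receptors that removes lipoprotein receptors, read -0.62, -0.61, 0.19 and -0.53 (mean -0.39; adjusted p = 0.200; 0.00711 without array 3). In both, array 3 was the pair of the opposite sign. Abca1, the exporter that forms high-density lipoprotein, was unmarked on 2 arrays; with outlier spots kept it read -0.50, -0.77, 0.30 and -1.08 (mean -0.51; adjusted p = 0.222). Npc1l1, the sterol importer of intestine, was not well above background in any green channel and in 1 of 4 red channels, and no level is given.

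Macrophage markers moved both ways beside these 2 falls. All 10 markers listed were tested, and none was at 0. Of them 6 fell (Cd68, Csf1r, Cd5l, Itgax, Gpnmb, Trem2) and 3 rose, Clec4f (2.37), Vsig4 (2.52) and Marco (2.48). Adgre1 had a mean of -0.80 and did not pass by limma (adjusted p = 0.107). The summed signal of the 8 measured on every array was 83280 to 144500 in control livers and 35040 to 56840 in the livers labelled Plin2-ASO, with log2 ratios of -1.76, -1.79, -0.82 and -0.60 on arrays 1 to 4. Cd5l made up 56.2% to 71.4% of that sum, and without it the ratios were -2.02, -2.18, -1.14 and -1.21. Clec4f and Marco are not in these sums, since each lacks 1 array. On the arrays that measured all 10 markers the ratio of the full sum was -1.19 (array 2) and -0.02 (array 4). On array 4, 7 of the 10 markers were below 0, with a median of -0.51, so rises and falls offset each other in that sum. On arrays 2 and 4 Soat1 read -1.54 and -0.61, and Abcg1 -1.53 and -0.73. Stellate cell markers (4 of 7 fell; summed ratios -1.41, -2.18, -0.90 and -1.68) and endothelial markers (3 of 7 fell; -1.13, -0.88, -0.20 and -0.84) were lower too. Of the adipocyte list, 6 of 7 were tested and 2 rose (Cfd and Car3), with summed ratios of 1.30, 1.24, 1.20 and 0.94. Car3, which hepatocytes also express, was 81.3% to 98.6% of that sum, and the other 5 gave -1.40, -0.43, 2.75 and 0.93. The sum of these 5 was highest on array 3, where Cfd read 6.45, Adipoq 4.10 and Plin1 1.96, but Cidec 0.04 and Lep -0.13. Of 3 enterocyte markers tested none passed by limma, adjusted or not. The part of these cells in the results on Soat1, Abcg1 or the enzymes was not tested.

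**Figure D4:**
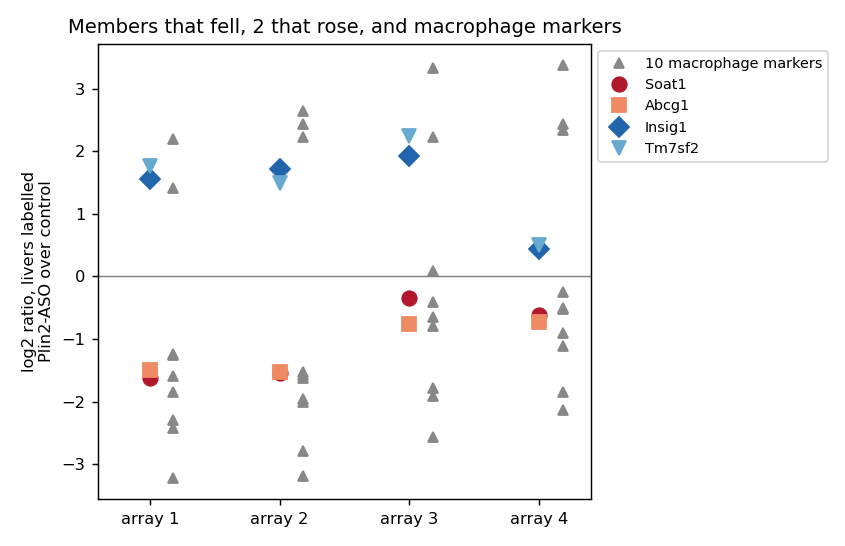
The y axis is the log2 ratio of livers labelled Plin2-ASO over control and the x axis the array, with a coloured symbol each for Soat1, Abcg1, Insig1 and Tm7sf2 and a grey triangle for each of 10 macrophage markers. Grey triangles lie on both sides of 0 on every array, Soat1 and Abcg1 lie lowest on arrays 1 and 2, and Insig1 and Tm7sf2 lie nearest 0 on array 4.

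The ratios were checked on other probes of the same genes. Of the 28 tested members, 17 had 2 or more kept probes measured on at least 3 arrays, 42 probes in all. In 15 of the 17 every probe had a mean of the same sign, and Fdft1 and Srebf2 had 1 probe of the opposite sign. Insig1 (1.41 and 1.29) and Nsdhl (1.40 to 1.57) had nearly the same mean on each of their probes. Those of Stard4 ran from 0.69 to 1.07 and those of Mvk from 0.72 to 1.09. The probe used for Fdps and for Lss lay far above the other, and the 3 probes of Cyp51 ran from 0.29 to 1.32. Abcg1 and Tm7sf2 had 1 probe.

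**Figure D5:**
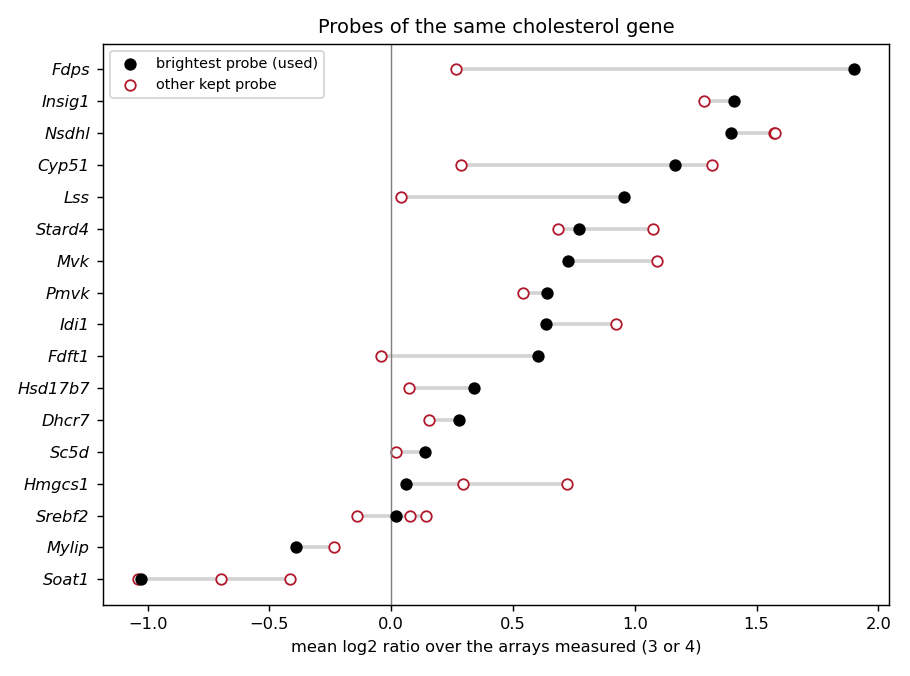
The x axis is the mean log2 ratio of a probe over the arrays that measured it, the y axis the 17 members with 2 or more kept probes; filled points are the brightest probe, which gave the value of the gene, and open points the other probes. Points of Insig1, Nsdhl and Soat1 stay on 1 side of 0, and Fdps has the widest distance between probes, followed by Cyp51 and Lss.

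Among 45 other genes of sterol metabolism, drawn up as 6 lists, 40 were tested, 2 rose and 4 fell, with a median mean ratio of -0.16. Over all genes 3.67% rose and 6.07% fell. An unadjusted p under 0.05 by limma was found in 14 of the 40 (35%), against 26.9% of all genes. These counts lie near the shares over all genes and are not read as a result about the lists. Of 8 tested genes of SREBP cleavage and sterol-driven degradation, 1 fell: Rnf145, a ubiquitin ligase of the endoplasmic reticulum that acts on Scap and on sterol synthesis, read -0.97, -1.11, -0.72 and -0.95 (mean -0.94 ± 0.13, SE, n = 4; adjusted p = 0.00801). All 4 pairs were alike, and the adjusted p was 0.072 without array 1 and 0.0687 without array 2. The proteases that cleave SREBP did not pass (Mbtps1 -0.23 and Mbtps2 -0.14; adjusted p = 0.423 and 0.515). None of the 7 tested genes of the isoprenoid side branches after farnesyl diphosphate passed, 6 had a mean below 0, and 3 had an unadjusted p under 0.05. The farnesyltransferase subunit Fntb had the smallest p (mean -0.43; adjusted p = 0.111).

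Of 7 liver X receptors and targets, 2 fell and none rose by limma, and 3 had an unadjusted p under 0.05. Abcg5, 1 of 2 subunits of the sterol exporter into bile, read -1.39, -1.31, -1.98 and -0.60 (mean -1.32 ± 0.22, SE, n = 4; adjusted p = 0.0137), and its partner Abcg8 read -0.21, -2.15 and -0.0012 on arrays 2 to 4 (mean -0.79; adjusted p = 0.282). Arl4c, a small GTPase of the same target group, fell by 0.86 on the log2 scale (adjusted p = 0.0242). Abcg5 and Arl4c lost their calls without array 1 (adjusted p = 0.0848 and 0.156) and without array 2 (0.0721 and 0.146). The receptors themselves, Nr1h3 and Nr1h2, had means of -0.0024 and -0.10 (adjusted p = 0.993 and 0.682), and the acyltransferase Lpcat3 read 0.53 (adjusted p = 0.0948). Together with Abcg1, 3 targets of these receptors fell while Abcg8, Lpcat3, Mylip and Smpdl3a did not pass.

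Of 4 tested genes of the synthesis or further hydroxylation of oxysterols, 1 rose and 1 fell. Cyp27a1, the mitochondrial sterol 27-hydroxylase, read 1.43, 1.88, 0.89 and 1.53, 2.70-fold higher (1.43 ± 0.18, SE, n = 4; adjusted p = 0.00548), and it alone of the members and companion genes passed whichever array was left out (adjusted p up to 0.0412). Cyp39a1, a hydroxylase of 24-hydroxycholesterol, fell by 1.22 ± 0.24 on the log2 scale (adjusted p = 0.0255; 0.144 without array 1 and 0.0628 without array 4). Cyp7b1, the oxysterol 7-alpha-hydroxylase, read 3.20, 1.81, 3.71 and -0.81 (mean 1.98; adjusted p = 0.111), with the same sign change on array 4 as most synthesis enzymes. Of 9 tested genes of sterol transfer and ester hydrolysis only Osbpl9, an oxysterol-binding protein homologue, passed (0.73 ± 0.17, SE, n = 4; adjusted p = 0.0429), and it did not without array 1, 2 or 4 (adjusted p = 0.218, 0.118 and 0.0721). None of 5 tested genes of lipoprotein uptake and plasma esterification passed by limma, and 1 had an unadjusted p under 0.05: Lcat, which esterifies cholesterol in plasma, had a mean of 0.60 (adjusted p = 0.103).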

How the data were processed

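Liver RNA of 8 mice was hybridised to 4 Agilent arrays of 2 colours. Feature Extraction 9.5.1.1 made the spot intensities, per the file headers, and the deposited mean signal and median background intensity of each spot were used before any correction. The deposited log10 ratio and the authors' deposited log2 ratio per probe, which equalled it after conversion to within 6.2e-15 on all 41174 probes, served as alternatives with the sign turned. Dyes are those of the labels. With limma 3.58.1 (R 4.3.3, statmod 1.5.0, data.table version 1.17.8), background was corrected by normexp (offset 50) and ratios by loess. Control spots and outlier-marked spots were left out, and probes well above background on at least 3 arrays in 1 channel were kept (27158 probes). Each gene took its brightest kept probe measured on at least 3 arrays: 18640 genes were past the filter, 597 had too few arrays and 18043 were tested, by an intercept fit with eBayes (two-sided, 7.21 total degrees of freedom, Benjamini-Hochberg over all genes, threshold 0.05). Signals per liver were scaled by Aquantile. The number of arrays limits precision. The fit was tested on simulated data.

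Names came from RefSeq (GRCm38.p6) (8440 probes kept the name in the file). Figures were drawn with Python 3.11.15 and matplotlib 3.10.9. The members, the companion and marker lists and the tests were chosen with earlier results of these data known, so their counts are not independent support. Values on every array are given for members that passed, the 2 members of each role with the smallest p, the 4 sensor genes and members with a mean beyond 1; of companion genes, those that passed and the smallest p of each list are named. The array values of Fdft1, Sqle, Hmgcs1, Soat2, Npc1, Scarb1 and Abca1, and the other companion and marker genes named, were added after their values were seen. The alternatives are given at the end.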

Additional observations from a re-analysis of the deposited data

Results flagged for a closer look

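In 3 of 24 members measured on every array, 1 array lay far from the other 3 by Dixon's ratio of gap to range; chance alone marks about 1 in 20 such groups. Ebp read -0.52 on array 4 (ratio 0.860), and 0.24 to 0.37 on the others. Stard4 read -0.33 on array 4 (ratio 0.839), and 1.01 to 1.27 on the others. Mylip read 0.19 on array 3 (ratio 0.887), and -0.62 to -0.53 on the others. In Ebp and Stard4 it is the array on which most synthesis enzymes were lowest.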

How the results depend on the processing

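The number of members called (7) was 5 to 10 under the alternatives of background, normalization, filter, probe, outlier, design and threshold, 19 with array quality weights (array 3 received the lowest weight), and 0 to 12 when 1 array was left out. Insig1, Mvk, Tm7sf2 and Abcg1 kept their calls in every alternative other than leaving out array 1 or 2. The companion genes called (6) became 21 with array weights and 1 to 15 with an array left out, and all genes called (1759) became 7010 with weights, 3000 at an adjusted p under 0.1 and 351 to 5907 with an array left out. The median of the members (0.32) ranged from 0.24 to 0.57. For the members whose groups did not overlap (6), alternatives chosen after seeing the data gave 6 to 14 with an array left out. Smaller groups part more readily by chance, and the share over all genes was not counted for these settings. These counts are therefore not a result about the members. The sign of the mean changed in 6 members, none of them called: Srebf2 was -0.028 with the software's ratios and -0.087 to 0.084 with an array left out, Scap -0.018 with array weights and -0.088 to 0.11, Hmgcs1 -0.059 with array weights and -0.26 to 0.35, Mvd -0.054 to 0.65, Npc1 -0.023 to 0.41, and Soat2 0.053 with median centring, 0.026 with scaling between arrays, 0.12 with array weights and -0.19 to 0.25. The cause was not tested. The channel fits used only the genes measured on every array.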
